A study of Oryza sativa with 12 samples.

Results

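Wild-type rice anthers were compared between anther stage 11 (S11) and stage 10 (S10), with 3 libraries of poly(A) RNA at each stage. The genes compared are the 1389 that stand in both deposited tables and average 1 FPKM or more over these 6 libraries, out of 1450 genes in both tables and 7087 in either. FPKM is a level scaled for transcript length and for the number of mapped fragments in the library. The series also holds 3 libraries at each stage from nup1, a mutant whose mutated locus the labels do not give. The groups are nup1 S11, nup1 S10, wild-type S11 and wild-type S10, 12 libraries in all, with no treatment named. The labels call the replicates biological and do not say whether they came from separate plants, so p-values measure the spread between these libraries.

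Each table lists only genes that the authors had called different between nup1 and wild type at that stage, so every gene here was selected for a nup1 difference at both stages. The authors' deposited tables listed 726 of the 1389 as lower in nup1 at both stages and 467 as higher at both. A further 80 were listed higher at S11 and lower at S10, and 116 lower at S11 and higher at S10. Whether both tables were normalized as 1 set is not shown. The stage comparison was therefore tested on ranks within each library, and a gene was called only if its adjusted p was under 0.01 and its deposited level also differed over 4-fold. The gene nearest to the 1 FPKM limit averaged 1.02 FPKM inside it and 0.987 FPKM outside it.

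In textbook accounts of rice anther development the tapetum, the innermost layer of the anther wall, nurses the microspores and makes the precursors of the pollen wall. It then breaks down by programmed cell death while the microspores vacuolate, divide and begin to store sugar as starch. Gibberellin, a hormone made from a diterpene in a chain of oxidations, is needed in rice for tapetal function and pollen formation.

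The label of the tissue was set against markers of the tapetum, of pollen, of meiocytes and of other floral organs. Of the 6 tapetum markers 4 were among the shared genes (RTS, RAFTIN1, OsC6 and CP1). Their summed level was 4253 to 5521 FPKM in S11 libraries and 12351 to 16473 FPKM in S10 libraries. Most of that difference lay in OsC6, at 555 to 767 FPKM at S11 and 6535 to 7243 FPKM at S10. RTS overlapped between the stages, RAFTIN1 was lower at S11 by under 4-fold, and CP1 was at most 11.5 FPKM in any library. Of the 5 pollen markers INV4 was the 1 shared gene with a checked symbol (a symbol that the reference gene table holds on the chromosome of the locus), at 304 to 350 FPKM at S11 and 6.43 to 118 FPKM at S10. None of the 4 meiocyte or 4 floral organ markers was among the shared genes, and they are not analysed here. In whole anthers fewer cells of a type and less RNA per cell cannot be told apart.

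S10 replicate 2 stood nearer to S11 than the other S10 libraries did. Across the members its Spearman's rho with the S11 libraries was 0.793 to 0.819, against 0.586 to 0.675 for S10 replicates 1 and 3. The S11 libraries had a rho of 0.961 to 0.978 among themselves, and the S10 libraries 0.844 to 0.937. Among the genes called higher at S11, S10 replicate 2 was the S10 library nearest to the S11 mean in 85 of 93, and among those called lower in 56 of 79, against 618 of the 1217 not called. Without this library 127 genes were called higher and 98 lower, and 170 of the 172 calls were kept. Its part in each result was not tested beyond that fit.

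On the deposited values most members differed by 2-fold or less between the stages, while 479 of the 1389 differed by more. Over all 1389 genes the median S11 minus S10 difference of log2(FPKM + 1) was 0.04, with quartiles of -0.58 and 0.73. In all 172 genes were called (12.4%), 93 of them higher at S11 (6.7%) and 79 lower (5.69%). Every called gene had S11 libraries that did not overlap its S10 libraries, and such separation was found in 783 members (56.4%), in 431 with S11 above S10 (31%) and in 352 with S11 below (25.3%). The genes called higher had a median level of 64.8 FPKM at S11 and 7.63 FPKM at S10. Those called lower had a median of 3.54 FPKM at S11 and 39.8 FPKM at S10. A difference over 16-fold was reached by 12 genes called higher and 16 called lower. The count of higher calls was 50 without S10 replicate 1 and 60 without S10 replicate 3 or S11 replicate 3, and with a pseudocount of 5 FPKM there were 55 higher and 46 lower calls.

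**Figure D1:**
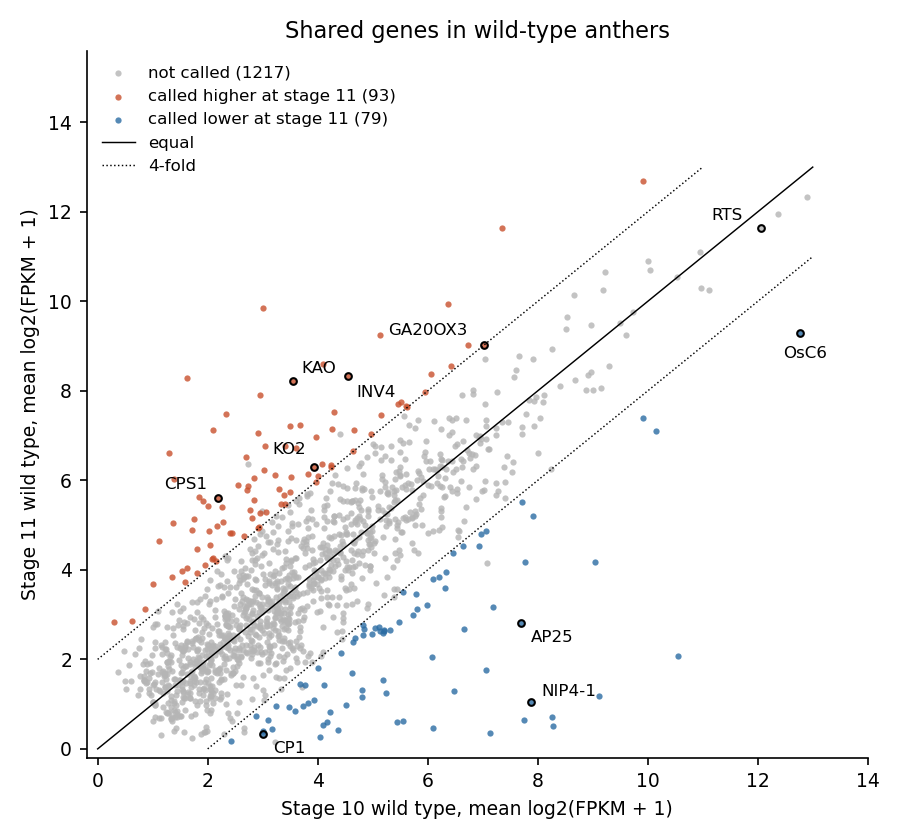
Mean log2(FPKM + 1) of the 1389 shared genes in 3 wild-type S11 libraries (vertical axis) against 3 wild-type S10 libraries (horizontal axis), with 1 point per gene, a solid line at equal levels and dotted lines at a 4-fold difference. The 93 genes called higher lie above the upper dotted line and the 79 called lower lie below the lower one, among which OsC6 was the most abundant at S10.

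Genes of gibberellin synthesis were higher at S11. The 4 shared genes of the list with a checked symbol were called higher, against 6.7% of all genes tested. Their median difference was 2.90, against 0.04 over all genes tested. Another shared locus of the list, whose symbol could not be checked and which is not named, was called higher too, so 5 of 5 were higher, with a median of 2.37. The list was written after values of these data had been seen, and 2 of its 6 loci with a checked symbol were not among the shared genes. Among the 4 checked genes the count was 1 without S10 replicate 1 and 2 without S11 replicate 1 or 3. The 4 enzymes act at different steps of the chain, and their levels are plotted by library with those of other genes called higher.

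CPS1 (LOC_Os02g17780), ent-copalyl diphosphate synthase, makes the first committed precursor. Its level was 50.2, 39.9 and 55.2 FPKM in S11 libraries 1 to 3, against 2.90, 8.74 and 1.49 FPKM in S10 libraries 1 to 3. All S11 libraries lay well above the S10 libraries, of which replicate 2 was the highest. The difference was 3.43 on the log2(FPKM + 1) scale, and after quantile matching 3.36 ± 0.47 (SE, limma adjusted p = 0.00137). Without S10 replicate 1 the adjusted p was 0.0102, just above the threshold.

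KO2 (LOC_Os06g37364), ent-kaurene oxidase, acts next among the members. It stood at 87.5, 64.4 and 84.8 FPKM at S11, against 12.9, 16.8 and 13.5 FPKM at S10. The S10 libraries were close together for this gene, replicate 2 included. The difference was 2.37, and 2.26 ± 0.20 after matching (limma adjusted p = 0.000246), and it was called in each of the 14 alternatives run for single genes.

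KAO (LOC_Os06g02019), ent-kaurenoic acid oxidase, showed the largest difference of the list. Its FPKM was 318, 247 and 330 at S11, against 6.90, 42.7 and 3.69 at S10. In rank it stood 38th to 47th of the 1389 genes in S11 libraries, against 754th, 280th and 1041st in S10 replicates 1, 2 and 3. The difference was 4.66, and 4.60 ± 0.72 after matching (limma adjusted p = 0.00212). The call was narrowly lost without S11 replicate 1, 2 or 3 (adjusted p = 0.0102, 0.0102 and 0.0103) and without S10 replicate 1 (adjusted p = 0.0159).

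GA20OX3 (LOC_Os07g07420), a gibberellin 20-oxidase of the last steps, was the most abundant of the 4. It reached 548, 457 and 561 FPKM at S11, against 112, 214 and 88.0 FPKM at S10. The separation was complete, but the difference of 2.01 (1.89 ± 0.28 after matching, limma adjusted p = 0.0016) lay at the 4-fold limit. It dropped under that limit without S11 replicate 1 (1.97), S11 replicate 3 (1.95), S10 replicate 1 (1.91) or S10 replicate 3 (1.74), and with median centring (1.95) or a pseudocount of 5 FPKM (1.97).

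EUI1 (LOC_Os05g40384), a cytochrome P450 that inactivates gibberellins, was the 1 gene with a checked symbol among 3 shared loci of the inactivation list. It had 61.2, 44.1 and 53.9 FPKM at S11, against 36.8, 46.0 and 32.2 FPKM at S10, so the stages overlapped. The difference of 0.46 was not called (limma adjusted p = 0.374). Of the 2 unchecked loci 1 was called higher and 1 was not called, so 1 of the 3 was called higher, against 6.7% of all genes tested. The inactivation list, too, was written after values of these data had been seen.

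**Figure D2:**
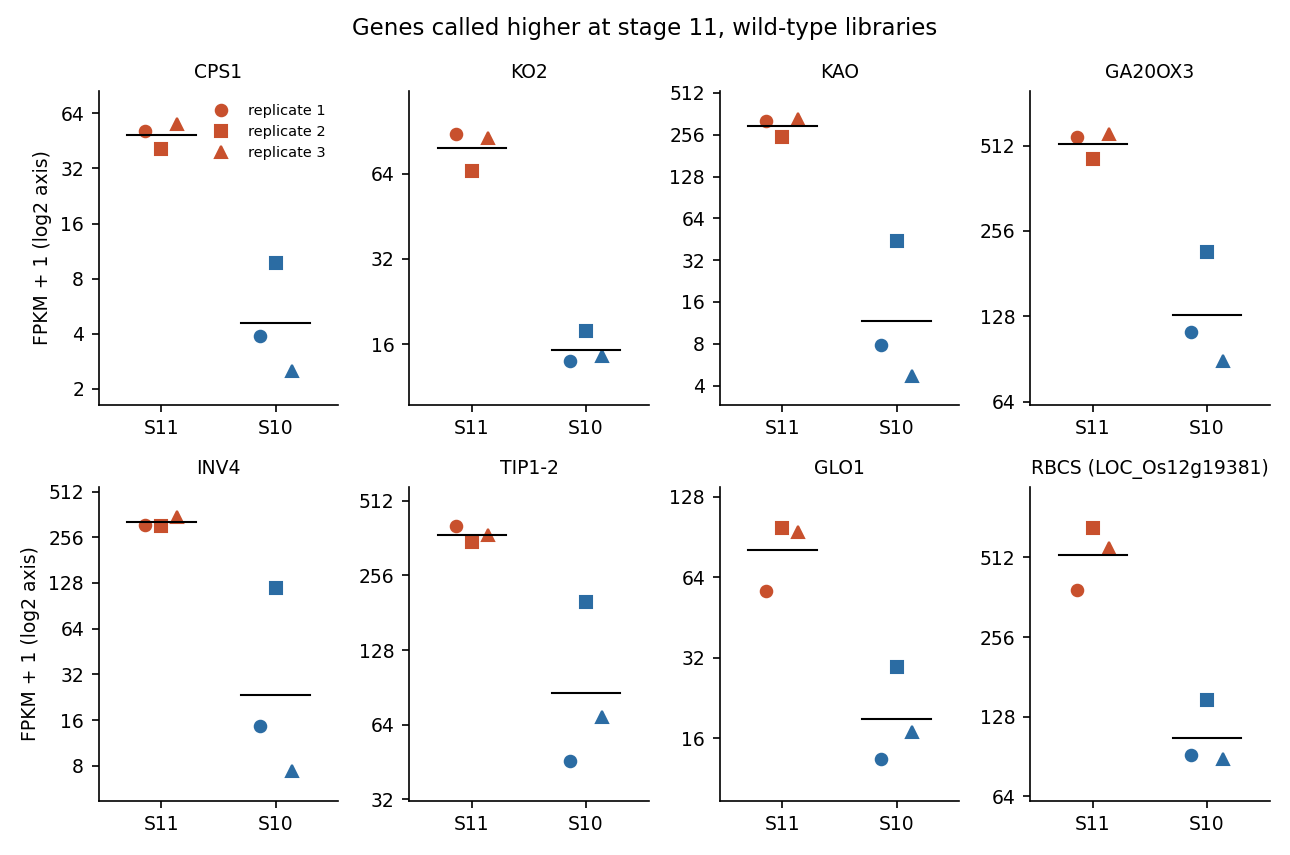
FPKM + 1 on a log2 axis in the 3 S11 (left, orange) and 3 S10 (right, blue) wild-type libraries for 8 genes called higher at S11, with marker shapes for replicates 1 to 3 and a line at the mean of the log2 values. In 8 of 8 panels all S11 points lie above all S10 points, and replicate 2 is the highest S10 point.

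Of 5 shared loci on the list of sugar supply to pollen 2 were called higher and 0 lower. Over all genes tested the shares were 6.7% and 5.69%. The symbols of 2 loci could be checked, those of INV4, which was called higher, and of HXK10, which was not. INV4 (LOC_Os04g33720), a cell-wall invertase that splits sucrose outside the cells it feeds, had 306, 305 and 350 FPKM at S11, against 13.6, 118 and 6.43 FPKM at S10. Its S11 libraries agreed closely, whereas S10 replicate 2 stood far above the other S10 libraries. The difference was 3.77, and 3.75 ± 0.83 after matching (limma adjusted p = 0.00882). The adjusted p was above 0.01 on the deposited values without matching (0.0104), with median centring (0.0103), with normal scores of ranks (0.0128) and without S11 replicate 1, 2 or 3 (0.0271, 0.0316 and 0.0306) or S10 replicate 1 or 3 (0.0451 and 0.0195). Without S10 replicate 2 the difference was 4.95.

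HXK10 (LOC_Os05g31110), a hexokinase that phosphorylates glucose, was low at both stages. Its level was 5.25, 5.44 and 5.46 FPKM at S11, against 1.42, 3.69 and 1.24 FPKM at S10. The stages did not overlap, but the difference of 1.12 was not called (limma adjusted p = 0.0184).

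SWEET11 (LOC_Os08g42350), a sucrose exporter, was the 1 sugar transporter with a checked symbol among the members. It had 53.9, 42.0 and 46.7 FPKM at S11, against 109, 145 and 101 FPKM at S10. Each S11 library lay below each S10 library, and the adjusted p passed (limma, 0.0007), but the difference of -1.29 was under the 4-fold limit.

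Starch and sucrose metabolism had 6 shared loci, of which 2 were called higher and 0 lower, against 6.7% and 5.69% of all genes tested. That list was written after values of these data had been seen. Both calls fell on loci whose symbol could not be checked, and 0 of the 3 checked genes were called. FRK2 (LOC_Os08g02120), a fructokinase, was among the most abundant members, at rank 9 or 10 in each of the 6 libraries, with 1520, 1491 and 1461 FPKM at S11 and 1246, 2093 and 1246 FPKM at S10. The stages overlapped (difference 0.01, limma adjusted p = 0.695). The starch debranching enzyme ISA1 had a difference of 0.12 and the starch synthase SSII-3 of -0.31, both with overlapping libraries.

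Of 6 shared photosynthesis loci 4 were called higher and 0 lower, against 6.7% and 5.69% of all genes tested. Apart from the Rubisco loci, these loci were entered after values of these data had been seen. The median difference of the 6 was 2.06. Among the 4 with a checked symbol 3 were called higher, with a median of 2.17. The count among those 4 was 1 without S11 replicate 2 or 3 and without S10 replicate 1 or 3. Both Rubisco small subunit loci, which encode part of the enzyme that fixes carbon dioxide, were among them. LOC_Os12g19381 had 383, 659 and 556 FPKM at S11, against 91.0, 147 and 87.6 FPKM at S10. LOC_Os12g19470 had 145, 289 and 233 FPKM at S11, against 32.2, 69.2 and 39.3 FPKM at S10. The loci are near-identical copies, and how reads were shared between them is not given in the sources used here, so their separate levels are uncertain. Their differences were 2.29 (limma adjusted p = 0.000754) and 2.24 (adjusted p = 0.0023). The second call was lost without S11 replicate 2 or 3 (adjusted p = 0.0107 and 0.0131) and without S10 replicate 1 or 3 (adjusted p = 0.015 and 0.0111).

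GLO1 (LOC_Os03g57220), a glycolate oxidase of photorespiration, had 56.0, 96.4 and 93.8 FPKM at S11, against 12.4, 28.5 and 15.9 FPKM at S10. The S11 libraries lay above the S10 libraries throughout (difference 2.10, limma adjusted p = 0.00419). The call was lost without S11 replicate 2 or 3 (adjusted p = 0.0208 and 0.0223) and without S10 replicate 1 or 3 (adjusted p = 0.0236 and 0.0175), and with a pseudocount of 5 FPKM (1.88). CFBP1, a cytosolic fructose bisphosphatase of sucrose synthesis, overlapped between stages at a difference of -0.25 and was not called.

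Tapetal genes were called lower or not called. Of 8 shared pollen wall and cuticle loci 2 were called lower and 0 higher. Among the 4 with a checked symbol OsC6 was the 1 called. Both members of the tapetal cell death list were called lower. Over all genes tested 5.69% were called lower and 6.7% higher. OsC6 (LOC_Os11g37280), a lipid transfer protein that carries lipids to the developing pollen wall, had 767, 555 and 569 FPKM at S11, against 7243, 7194 and 6535 FPKM at S10. It ranked 1st to 3rd of the members in S10 libraries, against 20th to 24th in S11 libraries. This 1 gene made up 0.676% to 0.843% of the members' summed FPKM at S11, against 6.71% to 9.96% at S10. The S10 libraries, replicate 2 included, agreed closely for it. The difference was -3.48, and -3.32 ± 0.19 after matching (limma adjusted p = 6.59e-05), and it was called in each of those 14 alternatives.

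The other pollen wall genes with a checked symbol were not called. RTS (LOC_Os01g70440), a tapetum-specific gene that male fertility requires, had 3457, 3697 and 2533 FPKM at S11, against 2759, 6687 and 4223 FPKM at S10. It kept a rank of 3rd to 5th in all 6 libraries, its stages overlapped, and the difference of -0.42 was not called (limma adjusted p = 0.758). RAFTIN1 (LOC_Os08g38810), a protein of the Ubisch bodies that line the tapetum, had 1297, 1210 and 1151 FPKM at S11, against 2342, 2588 and 1763 FPKM at S10. All S11 libraries lay below the S10 libraries, and the adjusted p passed (limma, 0.00963), but the difference of -0.85 was under 4-fold.

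CYP703A3 (LOC_Os08g03682), a fatty acid hydroxylase of sporopollenin synthesis, turned on S10 replicate 2. Its level was 9.35, 13.2 and 10.3 FPKM at S11, against 36.9, 5.93 and 50.2 FPKM at S10. That S10 library lay below all S11 libraries while the other S10 libraries lay above them. The difference of -1.0 was not called (limma adjusted p = 0.273). Without that library it was -1.89, with an adjusted p of 0.000227, still under 4-fold.

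AP25 (LOC_Os03g08790), an aspartic protease tied to tapetal cell death, had 5.22, 7.50 and 5.55 FPKM at S11, against 237, 93.1 and 393 FPKM at S10. The stages were far apart, with S10 replicate 2 the lowest of the S10 libraries. The difference was -4.88, and -4.86 ± 0.54 after matching (limma adjusted p = 0.000512). CP1 (LOC_Os04g57490), a cysteine protease of the same process, had 0.257, 0.393 and 0.142 FPKM at S11, against 7.95, 3.56 and 11.5 FPKM at S10. Its S11 levels were under the pseudocount of 1 FPKM, so the difference of -2.67 (limma adjusted p = 0.00181) understates the fold. The CP1 call was lost without S11 replicate 1 or 3 (adjusted p = 0.0101 and 0.0105), without S10 replicate 1 (0.0127), and with a pseudocount of 5 FPKM, where the difference was -1.22.

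TDL1A (LOC_Os12g28750), a small secreted protein that binds the receptor kinase MSP1 and limits the number of spore mother cells, was the 1 tapetum regulator among the members. It had 20.6, 17.8 and 16.2 FPKM at S11, against 2.22, 9.63 and 3.04 FPKM at S10. The stages did not overlap, and S10 replicate 2 was the highest S10 library. The difference of 1.89 was just under the 4-fold limit (limma adjusted p = 0.00818). It was 2.40 and called without S10 replicate 2, and 2.14 and called with a pseudocount of 0.1 FPKM.

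**Figure D3:**
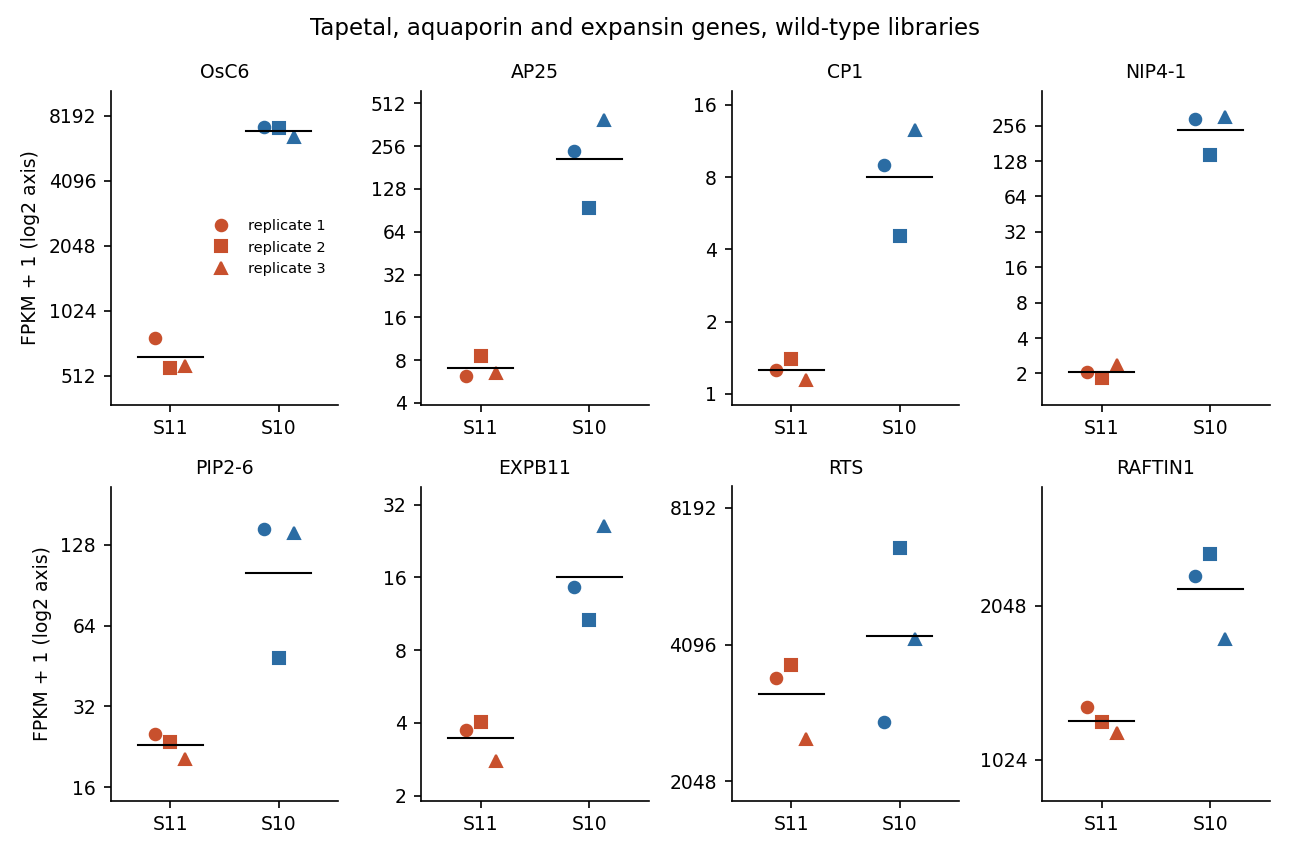
FPKM + 1 on a log2 axis in the 3 S11 (left, orange) and 3 S10 (right, blue) wild-type libraries for 5 tapetal genes, 2 aquaporins and an expansin, with marker shapes for replicates 1 to 3 and a line at the mean of the log2 values. OsC6, AP25, CP1, NIP4-1, PIP2-6 and EXPB11 were called lower at S11, while RTS overlapped between stages and RAFTIN1 differed by less than 4-fold.

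Aquaporins, the channels that pass water and small solutes through membranes, had calls in both directions. Of 7 shared loci 1 was called higher and 2 lower, against 6.7% and 5.69% of all genes tested. The aquaporin list was written after values of these data had been seen. The median difference was -0.30 over the 7 and 0.33 over the 6 with a checked symbol. The 1 higher call, TIP1-2, was not made in several fits, given with its values. NIP4-1 (LOC_Os01g02190), of the nodulin-26-like class, had 1.06, 0.823 and 1.36 FPKM at S11, against 288, 144 and 303 FPKM at S10. It was the 6th lowest difference of all members, at -6.82, and -6.75 ± 0.37 after matching (limma adjusted p = 6.59e-05). Its rank lay between 1266th and 1313th in S11 libraries, against 38th to 93rd in S10 libraries.

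PIP2-6 (LOC_Os04g16450), of the plasma membrane class, had 24.2, 22.6 and 19.4 FPKM at S11, against 146, 47.4 and 140 FPKM at S10. The stages did not overlap, and S10 replicate 2 was the nearest to S11 (difference -2.13, limma adjusted p = 0.0059). This call was lost without S11 replicate 1, 2 or 3 (adjusted p = 0.0237, 0.0221 and 0.0245), without S10 replicate 1 or 3 (0.0288 and 0.0249) and with a pseudocount of 5 FPKM (-1.96).

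TIP1-2 (LOC_Os01g74450), of the vacuolar membrane class, went the other way, with 403, 348 and 371 FPKM at S11, against 44.8, 199 and 67.8 FPKM at S10. The S11 libraries agreed closely and lay above the S10 libraries (difference 2.13, limma adjusted p = 0.00553). Its call was lost on the deposited values without matching (adjusted p = 0.0105), without S11 replicate 1, 2 or 3 (0.0217, 0.0229 and 0.0214) and without S10 replicate 1 or 3 (0.022 and 0.0265). TIP4-2, of the same class, separated fully at a difference of 1.56 (adjusted p = 0.00351, under 4-fold). The plasma membrane channels PIP2-2 and PIP2-7 had differences of 0.96 and -0.30 and were not called.

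Both members of the cell wall loosening list are beta-expansins, and 1 was called lower, against 5.69% of all genes tested. This list, too, was written after values of these data had been seen. EXPB11 (LOC_Os02g44108) had 2.75, 3.03 and 1.77 FPKM at S11, against 13.7, 9.68 and 25.2 FPKM at S10 (difference -2.20, limma adjusted p = 0.00287). EXPB7 (LOC_Os03g01270) had 1.41, 2.40 and 1.15 FPKM at S11, against 21.4, 4.17 and 18.8 FPKM at S10. Neither gene overlapped between stages, but EXPB7, at -2.34, was not called (adjusted p = 0.0171). It was called without S10 replicate 2 (-3.02, adjusted p = 0.000126) and on the deposited values without matching (adjusted p = 0.00955). The EXPB11 call was lost without S11 replicate 1, 2 or 3 (adjusted p = 0.0139, 0.0106 and 0.016), without S10 replicate 1 (0.0168), and without S10 replicate 3 or with a pseudocount of 5 FPKM, where the difference was -1.85 and -1.43.

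The jasmonate, abscisic acid, metallothionein and oxidant-removing lists held 7 shared genes in all, and 0 were called, against 12.4% of all genes tested. The abscisic acid genes, JAR1 and MT2A were entered after values of these data had been seen. The jasmonate members AOS1, a synthesis enzyme, JAZ12, a repressor of the response, and JAR1, which conjugates jasmonate to isoleucine, had differences of -0.68, -0.51 and 0.28, each with overlapping libraries. NCED3, of abscisic acid synthesis, and ABA8OX2, of its breakdown, had differences of -0.24 and -0.11, also with overlap. The peroxide-removing enzyme APX3 was low, at 0.514 to 1.31 FPKM at S11 and 1.07 to 3.0 FPKM at S10 (difference -0.45). MT2A (LOC_Os01g05650), a metal-binding metallothionein, had 1216, 992 and 1214 FPKM at S11, against 289, 673 and 338 FPKM at S10. Its stages did not overlap, and its difference of 1.49 passed the adjusted p (limma, 0.00447) but not the 4-fold limit.

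**Figure D4:**
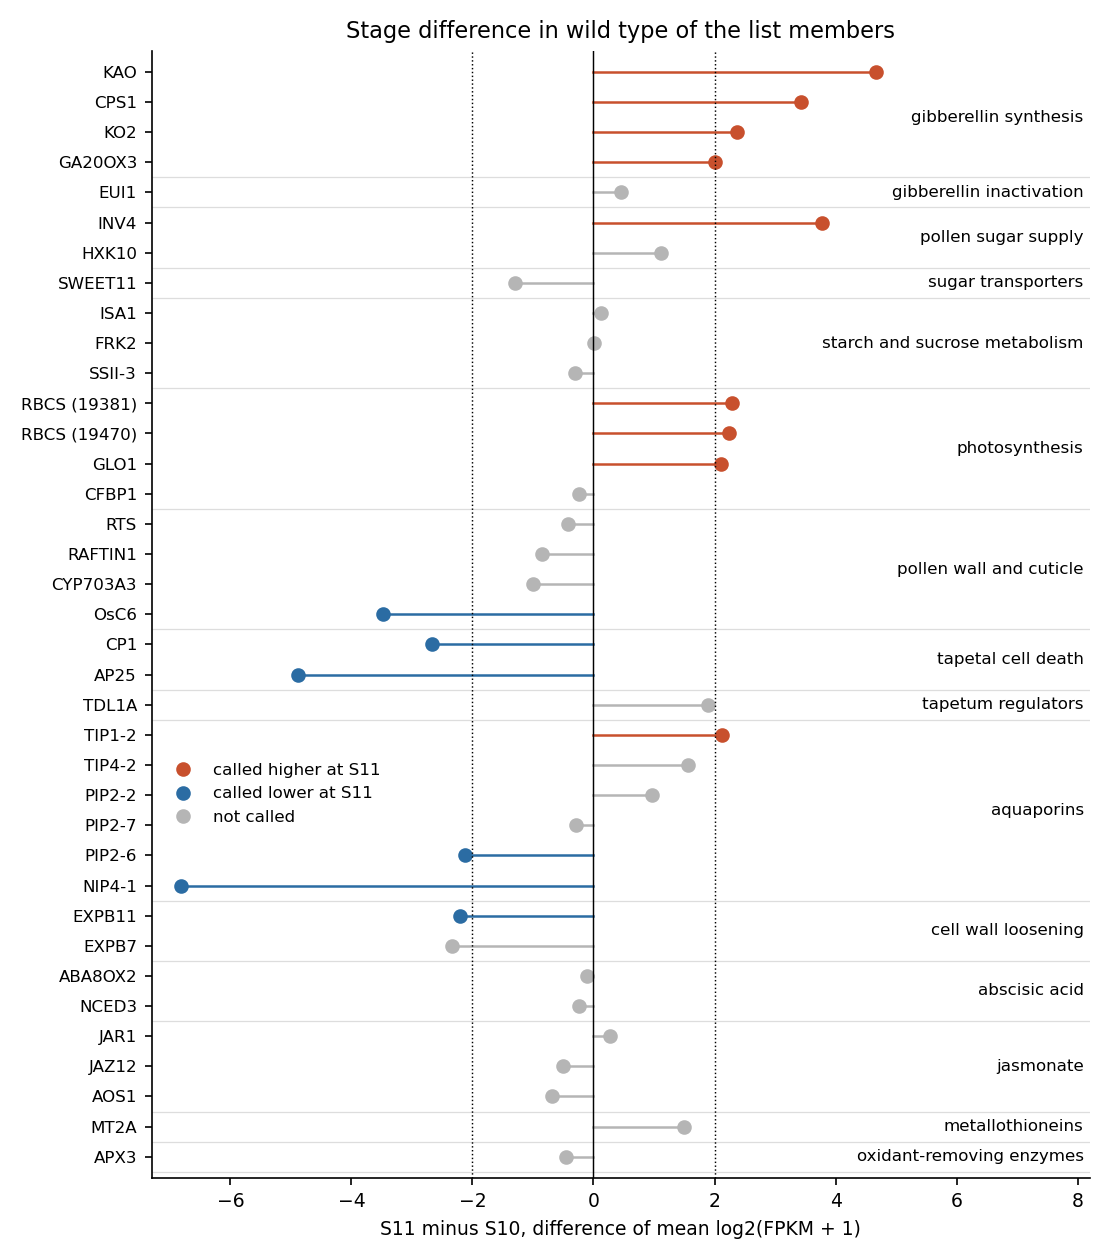
S11 minus S10 difference of mean log2(FPKM + 1) in wild type for the 37 list members with a checked symbol, grouped by list, with dotted lines at a 4-fold difference. Of the 37, 9 were called higher (orange), 6 were called lower (blue) and 22 were not called (grey). Over all genes tested 6.7% were called higher and 5.69% lower. Many of the 37 came from lists or additions written after values of these data had been seen. EXPB7, at -2.34 and not called, passed 4-fold but not the adjusted p.

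The largest differences either way belonged to loci for which no symbol had been entered in the lists. The reference gene table holds no locus IDs of this kind, so they could not be looked up there. LOC_Os10g32810 had 1111, 751 and 962 FPKM at S11, against 2.86, 53.7 and 1.48 FPKM at S10, the largest rise of all members (6.85, limma adjusted p = 0.00201). Its call was lost without S11 replicate 1 (adjusted p = 0.0101) and without S10 replicate 1 (0.0146). LOC_Os01g68540 had 360, 247 and 342 FPKM at S11, against 0.693, 10.5 and 0.508 FPKM at S10 (6.67, adjusted p = 0.00049). At the other end LOC_Os09g35700 had 6.24, 1.89 and 2.50 FPKM at S11, against 1643, 935 and 2170 FPKM at S10 (-8.48, adjusted p = 6.59e-05). LOC_Os10g05930 had 2.36, 0.777 and 0.945 FPKM at S11, against 1087, 190 and 827 FPKM at S10 (-7.94, adjusted p = 0.000246). In all 4 loci S10 replicate 2 was the S10 library nearest to S11.

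Whether these stage differences also held in nup1 was tested as the stage difference of nup1 minus that of wild type. For a gene well above the pseudocount of 1 FPKM in both genotypes, a factor common to all libraries of a table nearly drops out. It does not for genes near or under 1 FPKM in a group. Among them are KAO, INV4, LOC_Os01g68540 and LOC_Os10g32810 in nup1, and LOC_Os10g05930 in wild-type S11. Over the 1436 shared genes that averaged at least 1 FPKM across the 12 libraries, 308 differed (21.4%), 75 of them more positive and 233 more negative in nup1. With libraries centred on their medians the counts were 112 more positive and 197 more negative. The genes named here were chosen in part for a large wild-type difference, which enters this contrast, and all were selected for a nup1 difference at both stages.

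The 4 gibberellin synthesis genes with a checked symbol had differences of -0.89 to 0.37 between stages in nup1 on the log2(FPKM + 1) scale. KAO had 0.443, 0.215 and 0.243 FPKM in nup1 S11 and 1.69, 0.890 and 1.74 FPKM in nup1 S10. GA20OX3 had 7.33, 20.4 and 5.58 FPKM in nup1 S11 and 13.4, 17.3 and 14.7 FPKM in nup1 S10. The KAO libraries of nup1 did not overlap, with S11 below S10, and at such levels the pseudocount of 1 FPKM understates the fold. On the log2(FPKM + 1) scale the stage difference was -0.89 in nup1 and 4.66 in wild type for KAO, and -0.61 in nup1 and 2.01 in wild type for GA20OX3. For CPS1 it was 0.37 in nup1 and 3.43 in wild type, and for KO2 -0.09 in nup1 and 2.37 in wild type. All 4 contrasts passed (limma adjusted p = 0.00029, 0.00456, 0.00225 and 0.0006 for KAO, GA20OX3, CPS1 and KO2). The GA20OX3 contrast did not pass in 8 of the 12 fits with a library removed (adjusted p up to 0.0139, with wild-type S10 replicate 1 removed), nor that of CPS1 with a pseudocount of 0.1 FPKM (adjusted p = 0.0174).

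INV4 went likewise, with 0.244, 0.638 and 0 FPKM in nup1 S11 and 1.27, 1.13 and 1.08 FPKM in nup1 S10, a stage difference of -0.77 in nup1 and 3.77 in wild type (contrast -4.54 ± 1.02 SE, limma adjusted p = 0.00408). This contrast did not pass in 7 of the 12 fits with a library removed (adjusted p up to 0.0131, with wild-type S10 replicate 1 removed). TDL1A had a stage difference of -0.62 in nup1 and 1.89 in wild type (contrast -2.51 ± 0.54, adjusted p = 0.00325), which did not pass without nup1 S10 replicate 3 (adjusted p = 0.0113). PIP2-2 had one of -1.22 in nup1 and 0.96 in wild type (contrast -2.18 ± 0.38, adjusted p = 0.000804).

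CYP703A3 differed from these in where it was high. It had 7.75, 1.65 and 2.37 FPKM in nup1 S11 and 333, 423 and 456 FPKM in nup1 S10, so its S10 level in nup1 lay above every wild-type library. Its stage difference was -6.55 in nup1 and -1.0 in wild type (contrast -5.55 ± 0.89, limma adjusted p = 0.000431).

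For other genes the contrast did not pass, which does not show that the genotypes acted alike. The Rubisco small subunit LOC_Os12g19381 had a stage difference of 2.59 in nup1 and 2.29 in wild type (contrast 0.30 ± 0.46, limma adjusted p = 0.728). NIP4-1 had -6.98 in nup1 and -6.82 in wild type (contrast -0.16 ± 1.65, adjusted p = 0.964), and OsC6 had -3.39 in nup1 and -3.48 in wild type (contrast 0.09 ± 1.28, adjusted p = 0.974). The wide errors of the last pair go with nup1 S11 libraries that spread from 0.176 to 92.3 FPKM for NIP4-1 and from 11.7 to 496 FPKM for OsC6, replicate 1 being the highest in both. AP25 had -6.16 in nup1 and -4.88 in wild type (adjusted p = 0.486), and MT2A 1.42 in nup1 and 1.49 in wild type (adjusted p = 0.947).

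**Figure D5:**
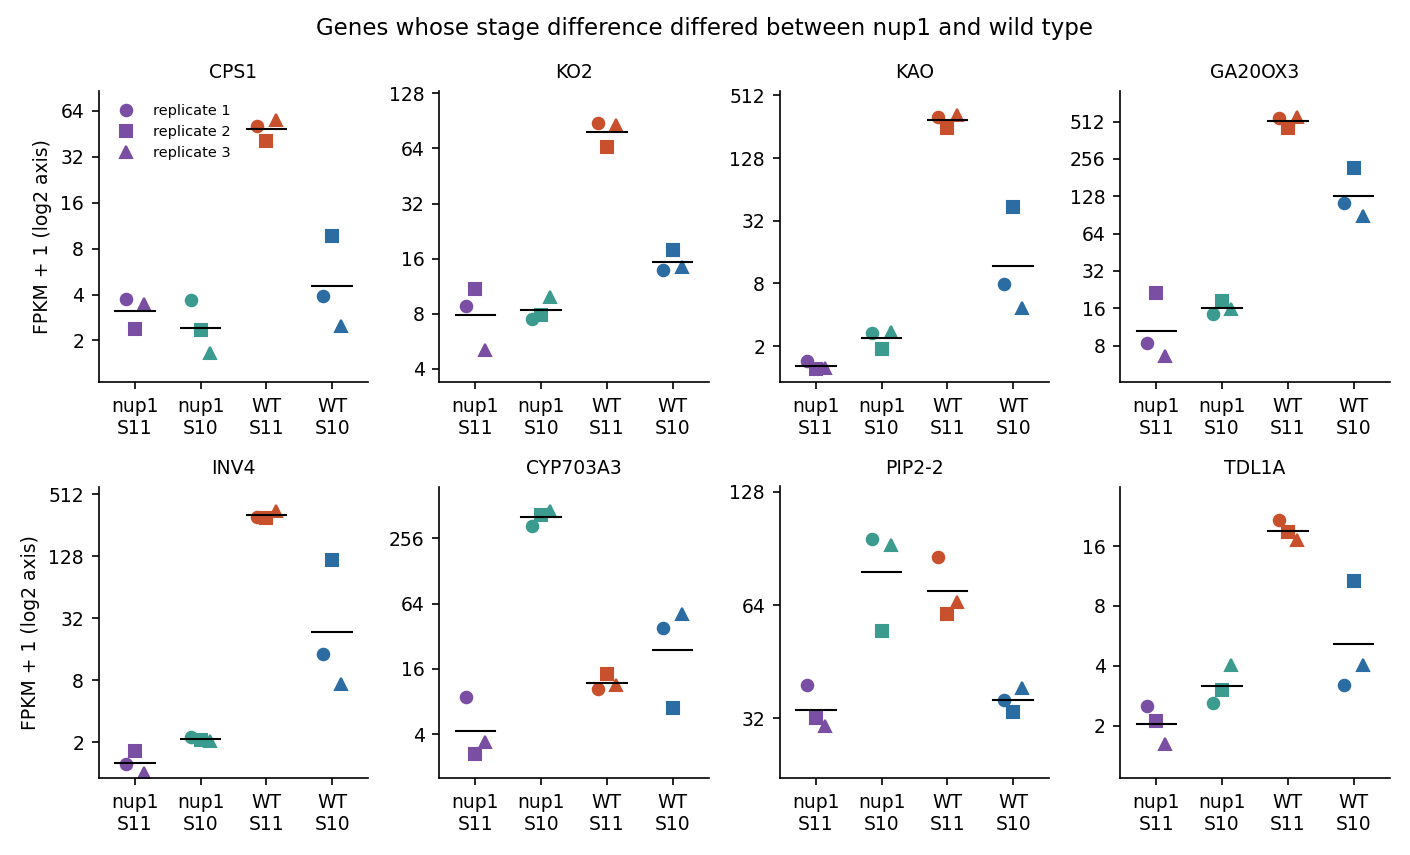
FPKM + 1 on a log2 axis in nup1 S11, nup1 S10, wild-type S11 and wild-type S10 libraries (3 each, marker shapes for replicates 1 to 3, line at the mean of the log2 values) for 8 genes whose stage difference differed between nup1 and wild type. For CPS1, KO2, KAO, GA20OX3 and INV4 the wild-type S11 points stand above all others, and for CYP703A3 the nup1 S10 points do.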

How the data were processed

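Poly(A) RNA of anthers was sequenced as read pairs of 150 bases, per the series' design text. HISAT2 did the mapping, on the MSU rice genome (v7.0), and Cufflinks the quantification, per the same text and the submitters' processing notes, which name no version of either. The authors deposited FPKM in 2 tables of genes they had called (false discovery rate under 0.01, over 2-fold). The depth of the libraries is unknown. For low genes, ratios of FPKM between libraries were set against whole-read steps (within 0.002 on the natural log scale) over a range of scale shifts. At the best shift 8.87% to 34.4% of genes lay on steps, against a median of 1.59% to 2.82% over the shifts. Most genes lay off the steps even so, so no reads were recovered and no interval is given.

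Values were log2(FPKM + 1), and fold changes on that scale understate the change of low genes. For the stage test the 6 wild-type libraries were matched quantile by quantile over the 1389 genes, which leaves only ranks within a library, and fitted with limma 3.58.1 (R 4.3.3, mean-variance trend), with Benjamini-Hochberg adjustment over all of them. A call needed an adjusted p under 0.01 and a deposited difference over 2 (4-fold) the same way, and 377 genes passed the first alone. Quantile matching assumes like overall distributions at both stages. The genotype contrast was fitted on deposited log2(FPKM + 1) of all 12 libraries. Both fits were tested on simulated data with known changes. For the genotype contrast all groups were drawn from the same mean per gene, apart from the planted changes. That simulation therefore could not show how a factor of a whole table acts on genes that are low in nup1.

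The tables give loci without symbols. Symbols were entered from recall and used only where the RefSeq gene table (assembly ASM3414082v1) holds them on the chromosome of the locus, which held for 170 of 266 list entries; 37 of those were members, and 19 members without such a match are counted but not named. Genes were named as list members, and as the largest rises and falls among called genes averaging 10 FPKM or more at the higher stage, with at most 2 loci without a list symbol each way; the RefSeq table holds no locus IDs of the kind in the tables. Members and lists were chosen with earlier results of these data known. The lists of gibberellin, starch, sugar transporter, aquaporin, cell wall and abscisic acid genes, and additions to the photosynthesis, metallothionein and jasmonate lists, were written after the values were seen. The lists of gibberellin signalling, heat shock, housekeeping, late pollen, meiosis, other floral organs, respiratory burst oxidases and stamen identity had 0 members with a checked symbol; the late pollen and heat shock lists had 1 unchecked member each, and neither was called.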

Additional observations from a re-analysis of the deposited data

Results flagged for a closer look

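For 11 named genes the stage difference differed between nup1 and wild type by the contrast of the 12 libraries (nup1 minus wild type, log2 scale, limma adjusted p under 0.01). Over all 1436 genes in this contrast 308 passed (21.4%). The named genes were chosen in part for a large wild-type difference, which enters the contrast. In gibberellin synthesis it was -5.55 for KAO, -3.05 for CPS1, -2.46 for KO2 and -2.61 for GA20OX3. It was -4.54 for INV4, -5.55 for CYP703A3, -2.51 for TDL1A and -2.18 for PIP2-2. Among loci without a list symbol it was -6.26 for LOC_Os10g32810, -6.75 for LOC_Os01g68540 and 4.40 for LOC_Os10g05930. In nup1 LOC_Os10g32810 had 2.41 to 3.03 FPKM at S11 and 1.27 to 1.67 FPKM at S10. LOC_Os01g68540 had 0.16 to 0.753 FPKM in nup1 S11 and 0.398 to 0.816 FPKM in nup1 S10. LOC_Os10g05930 was low in wild-type S11, at 0.777 to 2.36 FPKM. At such levels a factor of a whole table does not drop out of the contrast.

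With 1 library left out, the GA20OX3 contrast did not pass in 8 of 12 fits: nup1 S11 replicate 3, each nup1 S10 replicate, wild-type S11 replicates 1 and 3, and wild-type S10 replicates 1 and 3 (highest adjusted p = 0.0139, without wild-type S10 replicate 1). The INV4 contrast did not pass in 7 of 12: nup1 S11 replicate 3, each nup1 S10 replicate, wild-type S11 replicates 1 and 3, and wild-type S10 replicate 1 (highest adjusted p = 0.0131, without the last). The TDL1A contrast did not pass without nup1 S10 replicate 3 (adjusted p = 0.0113). The CPS1 contrast did not pass with a pseudocount of 0.1 FPKM (adjusted p = 0.0174), nor that of LOC_Os10g05930 with 5 FPKM (adjusted p = 0.0127).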

How the results depend on the processing

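The 93 higher and 79 lower calls became 55 and 46 with a pseudocount of 5 FPKM, 192 and 154 with a limit of 2-fold, and 35 and 30 with one of 8-fold. With 1 library left out there were 50 to 127 higher and 56 to 98 lower calls, fewest higher without S10 replicate 1 (50), then without S10 replicate 3 (60) or S11 replicate 3 (60), and most without S10 replicate 2. The fit on deposited values shared 170 calls with the reported 172, normal scores 168 and median centring 160. A replicate block gave 96 higher and 78 lower calls. Same-numbered S11 and S10 libraries deviated together with r of -0.111, 0.195 and -0.0708, and not every library correlated best with its own number, so the numbers were not taken to pair them. In the genotype contrast the block gave 73 more positive and 209 more negative genes, and median centring 112 and 197.

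By list, among genes with a checked symbol and with 1 library left out, the calls ranged from 1 to 4 for gibberellin synthesis, 1 to 3 for photosynthesis, 0 to 1 for pollen sugar supply, 0 to 1 (higher) and 1 to 2 (lower) for aquaporins, 0 to 2 for cell wall loosening, 1 to 2 for tapetal cell death and 0 to 1 for tapetum regulators. On deposited values 0 aquaporins were higher and 2 cell wall genes lower. The pollen sugar supply count was 0 on deposited values, with median centring and with normal scores. A pseudocount of 5 FPKM left 1 lower aquaporin, 0 cell wall genes and 1 tapetal cell death gene, and a minimum of 5 FPKM left 1 tapetal cell death gene, CP1 being too low to be tested. A pseudocount of 0.1 FPKM called 1 tapetum regulator. Median centring put GA20OX3 under 4-fold (1.95).

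Among named genes, signs turned only in those not called. FRK2 was -0.046 with median centring. With 1 library left out the difference ranged from -0.12 to 0.26 for FRK2, -0.61 to 0.42 for NCED3, -0.35 to 0.24 for ABA8OX2, -0.60 to 0.062 for PIP2-7 and -0.96 to 0.10 for JAZ12. The cause of these changes was not tested. Depth is unknown, so counting error could not be set beside the replicate spread.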
